A study of Homo sapiens with 30 samples.

Results

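Nuclear genes for subunits of the respiratory chain were followed in human macrophage-like cells exposed to 2 nanomaterials. The set held 48 named genes of complexes I to IV, each read from 1 probe set that the platform annotation assigns to that gene alone, the one with the highest mean where there were several. Of the 48 genes, 43 had such a probe set, and all 43 passed the filter on low values that left 10050 genes tested. The measured genes were 25 of complex I, 3 of complex II, 5 of complex III and 10 of complex IV, with NDUFA4 counted in complex IV, where it is now placed under the symbol COXFA4. The 5 genes not measured were NDUFS5, NDUFS8 and UQCRH, whose probe sets are shared with other genes, and SDHB and UQCRFS1, which matched no probe set in the annotation used here.

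Oxidative phosphorylation passes electrons from NADH and succinate down a chain in the inner mitochondrial membrane and stores the energy as a proton gradient. Complex I takes electrons from NADH, complex II from succinate, complex III passes them from ubiquinol to cytochrome c, and complex IV hands them to oxygen, while ATP synthase uses the gradient to make ATP. Most subunits are encoded in the nucleus and imported, a few of the catalytic ones are encoded in mitochondrial DNA, and macrophages shift the balance between this pathway and glycolysis as they become activated.

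The cells were THP-1, an established monocytic leukaemia line. In every group, controls included, they had first been treated with phorbol 12-myristate 13-acetate (PMA, 82 nM, 24 h), which makes them adherent and macrophage-like, and were then detached and replated. They were kept for 1 h or 24 h with no particles (the control), with 10 or 100 µg/ml multi-walled carbon nanotubes (MWCNT), or with 10 or 100 µg/ml titanium dioxide nanobelts (TiO2-NB). Each of the 10 groups had 3 arrays, described as biological replicates, and RNA came from the adherent cells only. The 24 h and 1 h groups thus also differ in the time since PMA treatment and replating.

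Values are log2 intensities. Each change is given with its standard error, and n = 3 arrays per group throughout. A gene was called when its Benjamini-Hochberg adjusted p, taken over all 10050 genes in a comparison by limma, was under 0.05. Over the 30 arrays the mean level of the 43 genes together lay between 10.65 and 10.97, and the mean levels of single genes lay between 8.60 and 12.71. The residual SD of these genes had a median of 0.063, against 0.128 for all genes tested, and ran from 0.036 (COX8A) to 0.156 (COX5B). Levels of different genes come from different probes and are not compared.

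Arrays within a group correlated at 0.9938 or higher. In each group 1 array lay apart from the other two on the main axis of the residuals, which took 43.1% (1 h) and 49.9% (24 h) of the residual variance. By arithmetic alone, 1 array of 3 always falls opposite the rest on such an axis, but this does not set the share of variance it takes. The array apart was replicate 2 at 1 h (replicate 1 with 10 µg/ml TiO2-NB). At 24 h it was replicate 3 in the low-dose and control groups and replicate 1 in both 100 µg/ml groups. In every group it also had the lowest mean level of the promonocyte markers, listed as signs of undifferentiated THP-1 cells. In the 24 h control this was 7.57 against 8.28 and 8.18. The part of this difference in the results was not tested. Of the 9 macrophage markers, 8 were measured, and their mean level ran from 9.77 to 10.02 at 1 h and from 10.29 to 10.78 at 24 h. Of lymphocyte, epithelial and fibroblast markers, listed as signs of other cells, 4, 3 and 4 were measured. At most 2 of a list were called in any comparison described here. The largest called changes were in the fibroblast marker PDGFRA at 24 h with 100 µg/ml MWCNT. They were 1.08 ± 0.15 against the control and 1.33 ± 0.15 against 100 µg/ml TiO2-NB.

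**Figure D1:**
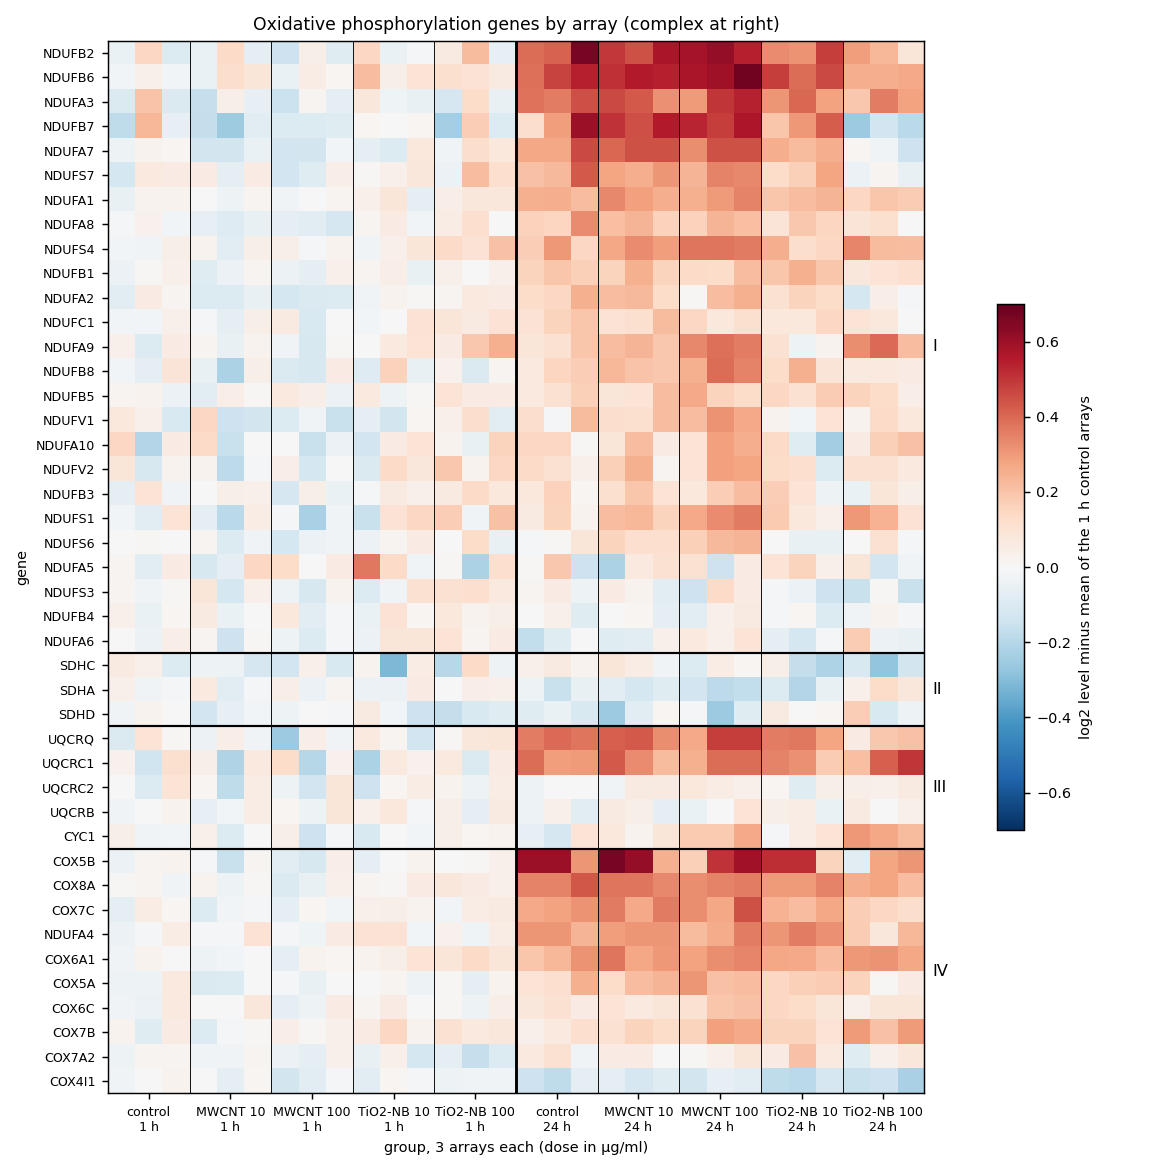
Level of each of the 43 genes (rows, ordered within complexes I to IV by their change with time in the control) on each of the 30 arrays (columns, 3 per group, dose in µg/ml), as log2 level minus the mean of the 1 h control arrays. The 5 groups at 24 h, right of the thick line, are mostly redder than those at 1 h, and within them NDUFB7, NDUFA7 and NDUFS7 are near the 1 h level with 100 µg/ml TiO2-NB.

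Between 1 h and 24 h without particles the respiratory chain genes moved mostly upward. Of the 43 genes, 20 rose and 1 fell, against 20.8% of all tested genes called higher and 16.1% called lower, and the median log2 change of the 43 was 0.13 against 0.03 for all genes. The increases lay in complex I, where 12 of 25 rose, in complex IV, where 6 of 10 rose and 1 fell, and in complex III, where 2 of 5 rose. None of the 3 measured complex II genes was called.

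Among the genes of complex I, the NADH dehydrogenase, the largest increases were in accessory subunits, which surround the catalytic core. NDUFB2 read 10.87, 11.06 and 10.82 on the 1 h control arrays and 11.31, 11.33 and 11.58 on the 24 h control arrays. It rose by 0.49 ± 0.09 (adjusted p = 0.000112), and its second probe set gave 0.44. NDUFB6 read 10.18, 10.23 and 10.18 at 1 h and 10.58, 10.67 and 10.74 at 24 h. For both genes the lowest 24 h array was above the highest 1 h array. NDUFB6 rose by 0.47 ± 0.06, with the smallest adjusted p of the set (3.14e-07).

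NDUFA3, also an accessory subunit, read 10.85, 11.15 and 10.85 at 1 h and 11.33, 11.31 and 11.40 at 24 h. It rose by 0.40 ± 0.08 (adjusted p = 0.000502), with replicate 2 of the 1 h control the highest of its group. NDUFB7 (0.34 ± 0.11), NDUFA7 (0.34 ± 0.06), NDUFA1 (0.24 ± 0.05) and NDUFA8 (0.22 ± 0.05) rose too, as did NDUFS4, NDUFB1, NDUFA2 and NDUFC1 by 0.15 to 0.20. Of the 5 measured core subunits, most of which carry the flavin or an iron-sulphur cluster, NDUFS7 rose by 0.29 ± 0.07. The other core genes were not called, at 0.11 for NDUFV1, 0.09 for NDUFV2, 0.08 for NDUFS1 and 0.01 for NDUFS3. NDUFB7 (adjusted p up to 0.131) and NDUFA2 (up to 0.14) lost their calls without replicate 3 at 24 h or replicate 1 at 1 h, and NDUFC1 (up to 0.12) without replicate 2 or 3 at 24 h or 1 or 2 at 1 h.

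In complex III, the cytochrome bc1 complex, UQCRQ, a small subunit, read 11.01, 11.21 and 11.12 at 1 h and 11.47, 11.51 and 11.49 at 24 h. The groups did not overlap, and the gene rose by 0.37 ± 0.08 (adjusted p = 0.000332). UQCRC1, one of the large core proteins, rose by 0.32 ± 0.10, a call lost without replicate 2 at 1 h (adjusted p = 0.0785). UQCRC2, the other core protein, and UQCRB were at -0.01 and -0.02 and were not called. CYC1, which carries the haem that passes electrons to cytochrome c, was at -0.02 ± 0.06 and was not called.

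In complex IV, the cytochrome c oxidase, COX5B read 11.60, 11.66 and 11.67 at 1 h and 12.24, 12.25 and 11.95 at 24 h. It rose by 0.50 ± 0.12 (adjusted p = 0.00204), and by 0.61 without the arrays that lay apart, one of which was the 24 h array at 11.95. Its 4 probe sets gave 0.38 to 0.53. COX8A, a small subunit, read 11.73, 11.74 and 11.70 at 1 h and 12.07, 12.07 and 12.16 at 24 h, and rose by 0.37 ± 0.05 (adjusted p = 4.97e-07).

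COX7C (0.29 ± 0.05), NDUFA4 (0.28 ± 0.05), COX6A1 (0.25 ± 0.05) and COX5A (0.15 ± 0.05) also rose, and COX5A lost its call without replicate 3 at 24 h or replicate 1 or 2 at 1 h (adjusted p up to 0.171). COX4I1, the largest nuclear-encoded subunit, read 12.56, 12.59 and 12.61 at 1 h and 12.44, 12.41 and 12.52 at 24 h. It was the only gene of the set called lower, by -0.13 ± 0.05 (adjusted p = 0.0316), and its other 2 probe sets gave -0.18 and -0.33. That call was lost without replicate 1 or 2 of the 24 h control, without replicate 2 or 3 of the 1 h control, and with each array centred on its median (adjusted p up to 0.229 over all alternatives).

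For 21 of the 43 genes every 24 h control array was above every 1 h control array, against 25.4% of all genes tested. The number of called genes was 21 in all, 17 to 20 when 1 array was left out and 21 without the arrays that lay apart. Other features of the cells moved with time as well. All 14 proliferation genes fell, with a median of -1.18, 5 of 6 promonocyte markers fell, and 7 of 8 macrophage markers rose. The difference between the 3' and 5' probe sets of ACTB, a sign of RNA integrity, was 0.50 to 0.75 in the 1 h control and 0.35 to 0.49 in the 24 h control, and that of GAPDH 0.25 to 0.39 and 0.28 to 0.34. The part of these in the result was not tested. In bulk RNA, a change in how many cells of a kind are present and a change in RNA per cell cannot be told apart.

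Other mitochondrial lists were read in the same comparison, where 20.8% of all tested genes were called higher and 16.1% lower. Of 8 other subunits of complexes I, III and IV, outside the 48 genes, 6 rose and 1 fell, and the largest increases were in NDUFA13 (0.44 ± 0.05), UQCR11 (0.39 ± 0.08) and COX6B1 (0.33 ± 0.05). Of 15 ATP synthase genes 6 rose and 1 fell. ATP5MC2, a gene for the c subunit of the rotor, rose by 0.36 ± 0.05, and ATP5IF1, the inhibitor of the enzyme's reverse reaction, fell by 0.49 ± 0.08. Of 47 mitochondrial ribosome genes, whose products translate the mitochondrially encoded subunits, 19 rose and 0 fell by limma, with MRPL17 at 0.72 ± 0.10.

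Lists for neighbouring functions were set against the 36.9% of all genes tested that were called in either direction. Of 9 mitochondrial carriers and porins 2 rose and 3 fell, among them the citrate carrier SLC25A1 (-0.62 ± 0.10) and the porin VDAC3 (-0.23 ± 0.07). Of 22 assembly factors 4 rose and 2 fell, with COX10, which makes haem for complex IV, at 0.36 ± 0.09. Of 15 tricarboxylic acid cycle genes 4 rose and 1 fell. Of 14 regulators of mitochondrial biogenesis 2 rose, the coactivator PPRC1 (0.26 ± 0.07) and the nuclear receptor ESRRA (0.16 ± 0.05). Glycolysis had 2 higher and 2 lower of 22, and UCP2, a carrier of the uncoupling protein family, rose by 0.84 ± 0.11. None of the 26 listed genes of the mitochondrial genome matched a probe set, so that they were not analysed here.

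**Figure D2:**
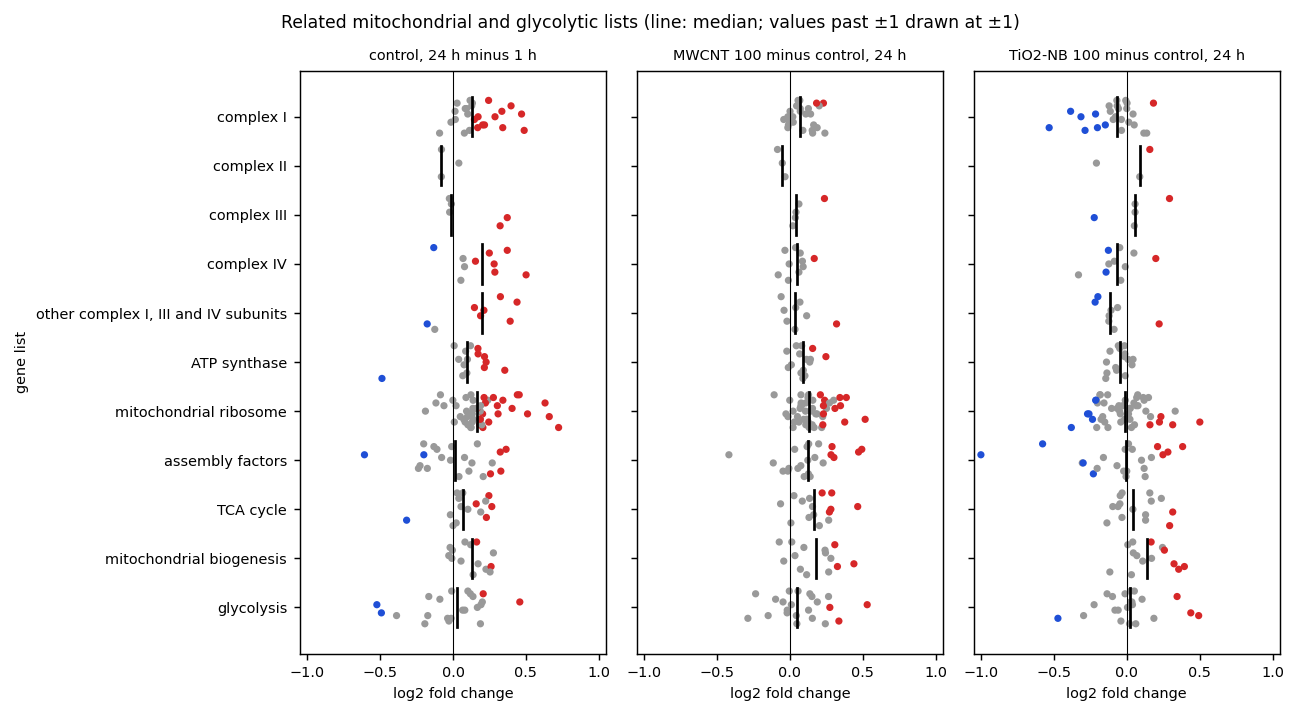
Log2 fold change of each gene (points, red called higher, blue called lower, grey not called) in the complexes and in related lists, in the control between 1 h and 24 h and at 24 h with 100 µg/ml of each material, with the median of each list as a black line. COX20, at -1.81 with TiO2-NB, is drawn at the edge. The complex I median is 0.13 with time, 0.07 with MWCNT and -0.07 with TiO2-NB.

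With 100 µg/ml TiO2-NB at 24 h, most called genes of complex I were lower than in the control, and single genes of each complex were higher. Of the 43 genes, 10 fell and 4 rose, against 11.1% of all tested genes called lower and 10.9% called higher. The median log2 change was -0.05 against 0.01 for all genes. Of the 10 that fell, 7 belong to complex I, 1 to complex III and 2 to complex IV. With each array centred on its median 6 fell and 4 rose.

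The largest decrease was in NDUFB7, an accessory subunit on the intermembrane-space side of complex I. It read 8.68, 8.85 and 9.16 on the control arrays and 8.30, 8.42 and 8.37 with TiO2-NB. All 3 exposed arrays were below the lowest control array and near the 1 h control arrays at 8.38, 8.79 and 8.50. The change was -0.53 ± 0.11 (adjusted p = 0.000634), a level 0.691 times that of the control, and -0.37 without the arrays that lay apart, the highest control array among them (adjusted p = 0.00291).

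NDUFA7, an accessory subunit of the matrix arm, read 9.32, 9.32 and 9.51 in the control and 9.06, 9.02 and 8.90 with TiO2-NB. The exposed arrays lay near those of the 1 h control, which read 9.01, 9.07 and 9.06. The change was -0.39 ± 0.06 with the smallest adjusted p of the set (7.18e-05). Both NDUFB7 and NDUFA7 stayed called under all 15 alternatives to the fit. A second, dim probe set of NDUFB7, with a mean level of 4.36, did not pass the filter. It gave -0.11 here and 0.26 between the materials. NDUFS7, the core subunit that holds the last iron-sulphur cluster before ubiquinone, read 9.28, 9.30 and 9.50 in the control and 9.03, 9.09 and 9.02 with TiO2-NB. It did not overlap between the groups and fell by 0.31 ± 0.07 (adjusted p = 0.00274).

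NDUFB2 read 11.31, 11.33 and 11.58 in the control and 11.21, 11.15 and 11.00 with TiO2-NB, and changed by -0.29 ± 0.09 (adjusted p = 0.0223), with -0.29 also from its second probe set. NDUFB6 read 10.45, 10.45 and 10.46 with TiO2-NB, the narrowest spread among these genes, against 10.58 to 10.74 in the control, and changed by -0.21 ± 0.06 (adjusted p = 0.00661). Neither gene overlapped between the groups. NDUFB6 lost its call without the arrays that lay apart and when only the arrays compared were fitted (adjusted p up to 0.114). UQCRQ of complex III read 11.17, 11.30 and 11.32 with TiO2-NB against 11.47 to 11.51 in the control, and changed by -0.22 ± 0.07 (adjusted p = 0.0349).

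Some of these calls rested on single arrays. NDUFB2 lost its call without replicate 3 of the exposed group or of the control (adjusted p up to 0.151 over all alternatives). UQCRQ lost it without replicate 1 of the exposed group or any 1 control array (up to 0.152). The other 4 genes that fell, NDUFA2 (-0.20 ± 0.06), NDUFA8 (-0.15 ± 0.05), COX7C (-0.14 ± 0.05) and COX8A (-0.13 ± 0.05), had adjusted p values of 0.0164, 0.0477, 0.048 and 0.0477. COX7C and COX8A lost their calls without any 1 of the 6 arrays (0.0554 to 0.192). NDUFA2 and NDUFA8 lost theirs without replicate 1 of the exposed group or replicate 3 of the control, and NDUFA8 also without replicate 3 of the exposed group (up to 0.272). A second, dim probe set of NDUFA2, with a mean level of 5.45, gave 0.00.

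COX5B read 11.57, 11.92 and 11.95 with TiO2-NB against 12.24, 12.25 and 11.95 in the control, and at -0.33 ± 0.12 it was not called (adjusted p = 0.0541). In each of the 5 groups at 24 h its lowest array was the one that lay apart, and its 4 probe sets gave -0.31 to -0.41. For 16 of the 43 genes every exposed array was below every control array, against 16.7% of all genes tested. Those not called were NDUFA1, NDUFA4, NDUFB1, NDUFB8, NDUFC1 and SDHC.

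Promoters are shown for the 3 genes with the largest called decreases and, as an example from complex IV, for COX8A. Like the other genes that fell with TiO2-NB, COX8A rose with time. The promoters are the stretches on which sites of factors known for respiratory genes were looked for. The sequences are the 250 bases before the RefSeq start of each gene in build GRCh38.p14, 5′ to 3′ on the gene's strand. Capitals mark matches to GCATGCGC, a core of the nuclear respiratory factor NRF1 site, or to CCGGAAG, a core of ETS family sites such as that of GABPA, on either strand. NDUFB7 lies on the minus strand at chr19:14572067-14572316, NDUFA7 on the minus strand at chr19:8321376-8321625, NDUFS7 on the plus strand at chr19:1383657-1383906 and COX8A on the plus strand at chr11:63974370-63974619.
NDUFB7: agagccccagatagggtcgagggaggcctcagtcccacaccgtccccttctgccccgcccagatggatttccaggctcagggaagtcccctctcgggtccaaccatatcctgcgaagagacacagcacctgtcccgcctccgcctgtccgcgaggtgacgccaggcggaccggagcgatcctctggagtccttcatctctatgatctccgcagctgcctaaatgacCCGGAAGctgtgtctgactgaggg
NDUFA7: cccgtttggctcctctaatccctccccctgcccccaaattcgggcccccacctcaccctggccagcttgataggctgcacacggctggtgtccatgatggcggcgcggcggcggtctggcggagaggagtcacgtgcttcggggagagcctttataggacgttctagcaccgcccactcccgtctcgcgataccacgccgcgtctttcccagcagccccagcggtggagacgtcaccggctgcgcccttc
NDUFS7: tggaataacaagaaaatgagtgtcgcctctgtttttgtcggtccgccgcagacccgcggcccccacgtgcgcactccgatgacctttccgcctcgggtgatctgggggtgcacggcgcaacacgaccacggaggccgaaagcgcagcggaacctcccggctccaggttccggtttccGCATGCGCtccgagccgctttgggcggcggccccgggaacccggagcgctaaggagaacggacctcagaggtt
COX8A: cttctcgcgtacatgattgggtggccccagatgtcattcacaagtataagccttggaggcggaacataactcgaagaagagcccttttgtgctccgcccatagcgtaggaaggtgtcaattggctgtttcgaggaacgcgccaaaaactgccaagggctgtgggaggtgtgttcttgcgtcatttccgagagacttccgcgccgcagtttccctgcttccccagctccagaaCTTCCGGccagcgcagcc
NDUFB7 and COX8A each hold 1 ETS match, in COX8A on the opposite strand, NDUFS7 holds 1 NRF1 match, and NDUFA7 holds neither. No printed match overlaps another.

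Over the set, 38 of the 43 measured genes had a promoter in the table used. The NRF1 core was found in 7 of them (18.4%), against 4.17% of the promoters of 8128 tested genes and 2.81% of all 27305 promoters. The ETS core was found in 9 (23.7%), against 14.3% and 8.82%. AAGATGGC, a core of the YY1 site, was found in 0 of 38, against 1.73% and 1.37%, and GGGCGG, the SP1 core, in 23 (60.5%), against 64.3% and 42.3%. Among the 10 genes that fell with TiO2-NB the NRF1 core was in 1 and the ETS core in 3. These are matches of letters in a fixed window. NDUFB7, NDUFA7 and NDUFS7 lie on chromosome 19, as do 4 of the 38 genes and 7.59% of the 8128.

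**Figure D3:**
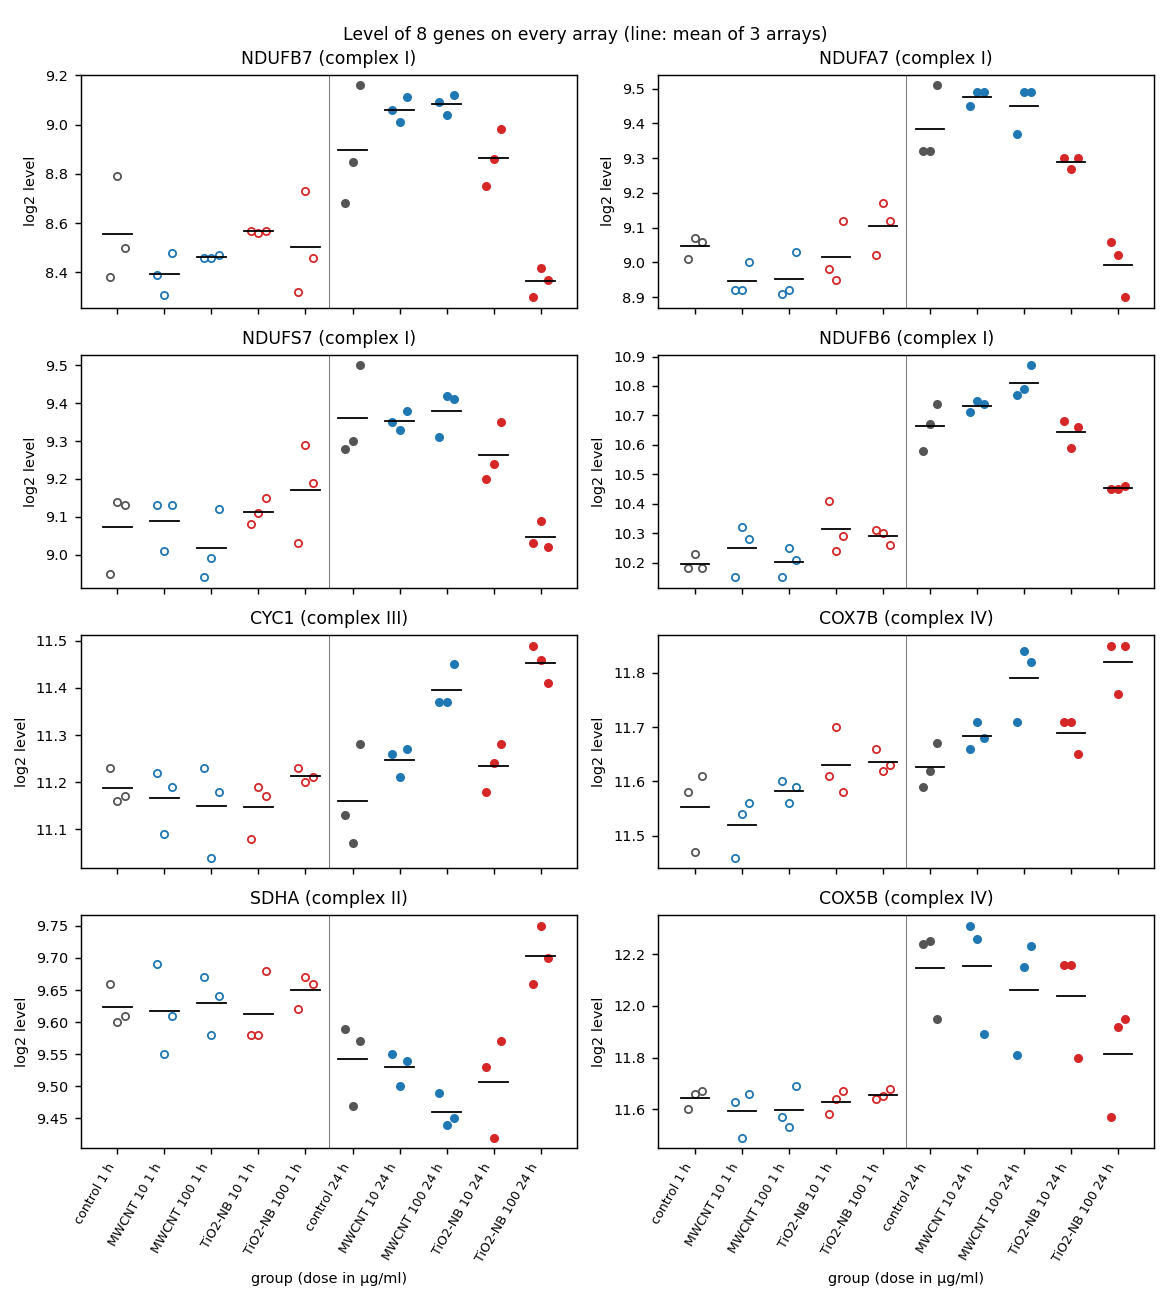
Log2 level of 8 genes on every array, by group (open points 1 h, filled points 24 h, grey control, blue MWCNT, red TiO2-NB, dose in µg/ml), with the mean of 3 arrays as a line. NDUFB7, NDUFA7 and NDUFS7 are lower with 100 µg/ml TiO2-NB at 24 h than on any other 24 h array, CYC1 and COX7B are high with 100 µg/ml of either material, and SDHA is highest of the 24 h groups with 100 µg/ml TiO2-NB.

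The 4 genes that rose with 100 µg/ml TiO2-NB at 24 h come from 4 complexes. CYC1, cytochrome c1 of complex III, read 11.13, 11.07 and 11.28 in the control and 11.49, 11.46 and 11.41 with TiO2-NB. The groups did not overlap, and the gene rose by 0.29 ± 0.06 (adjusted p = 0.000828). COX7B, a small subunit of complex IV, read 11.59, 11.62 and 11.67 in the control and 11.85, 11.76 and 11.85 with TiO2-NB, and rose by 0.20 ± 0.05 (adjusted p = 0.00729).

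NDUFA9, a complex I accessory subunit near the ubiquinone site, read 8.56, 8.58 and 8.67 in the control and 8.80, 8.87 and 8.69 with TiO2-NB. It rose by 0.18 ± 0.06 (adjusted p = 0.0336). SDHA, the flavoprotein of complex II that oxidises succinate, read 9.59, 9.47 and 9.57 in the control and 9.66, 9.75 and 9.70 with TiO2-NB, and rose by 0.16 ± 0.05 (adjusted p = 0.0332). Neither overlapped between the groups. NDUFA9 lost its call without replicate 1 or 2 of either group (adjusted p up to 0.201 over all alternatives), and SDHA without replicate 2 or 3 of the exposed group or replicate 2 of the control (up to 0.23).

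The number of called genes was 14 with all arrays, 8 to 10 when 1 array was left out, with 8 without replicate 1 of the exposed group, and 9 without replicate 2 or 3 of the control. It was 7 without the arrays that lay apart. Markers moved beside it: 5 of 8 macrophage markers fell, their mean level being 10.29 to 10.35 with TiO2-NB against 10.75 to 10.78 in the control. Of the 14 proliferation genes 1 rose, and their mean level was 7.77 to 8.06 against 7.39 to 7.71. The 3' to 5' difference of ACTB was 0.49 to 0.54 against 0.35 to 0.49 in the control, and that of GAPDH 0.31 to 0.48 against 0.28 to 0.34. With 10 µg/ml TiO2-NB at 24 h the difference of ACTB was 0.51 to 0.64. The part of these in the result was not tested.

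Related lists did not all go the way of complex I with TiO2-NB, where 11.1% of all tested genes were called lower and 10.9% higher. Of 15 ATP synthase genes 0 were called by limma, 2 had an unadjusted p under 0.05, and the median was -0.05. Of the 8 other subunits, NDUFA13 (-0.22 ± 0.05) and COX6B1 (-0.20 ± 0.05) fell and CYCS, cytochrome c, rose by 0.22 ± 0.05. Of 47 mitochondrial ribosome genes 5 rose and 6 fell. Of 22 assembly factors 4 rose and 4 fell. COX20, needed to insert a core subunit of complex IV, had the largest change of any gene named here, at -1.81 ± 0.21. Its mean level was 6.48 in the control and 4.67 with TiO2-NB, against whole-array medians of 6.35 to 6.46. NUBPL, which supplies iron-sulphur clusters to complex I, fell by 0.58 ± 0.14, from 5.555 to 4.978. Both genes were thus dim with TiO2-NB. Of 14 biogenesis regulators 5 rose and 0 fell, among them PPRC1 (0.40 ± 0.07) and GABPB1 (0.36 ± 0.11), a subunit of the GABP factor, and 3 of 6 redox and uncoupling genes fell, with UCP2 at -0.63 ± 0.11.

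After 24 h with 100 µg/ml MWCNT the share of the set called higher was near that of all genes tested. Of the 43 genes, 4 (9.3%) rose and 0 fell, against 8.99% of all tested genes called higher and 4.04% called lower. In the set 9 genes had an unadjusted p under 0.05. The median change was 0.06 against -0.01 for all genes, and 31 of the 43 changes were above 0. CYC1, NDUFA9 and COX7B were also called higher with TiO2-NB, a comparison that shares the 3 control arrays.

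CYC1 read 11.37, 11.37 and 11.45 with MWCNT, above the control arrays given above, and rose by 0.24 ± 0.06 (adjusted p = 0.00816). NDUFA9 read 8.81, 8.86 and 8.83 and rose by 0.23 ± 0.06 (adjusted p = 0.0126). COX7B read 11.71, 11.84 and 11.82 and rose by 0.17 ± 0.05 (adjusted p = 0.0352). All 3 genes were higher on every exposed array than on any control array.

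NDUFS6, a zinc-binding accessory subunit of complex I, read 11.26, 11.28 and 11.36 in the control and 11.44, 11.50 and 11.51 with MWCNT, without overlap, and rose by 0.18 ± 0.05 (adjusted p = 0.0225). NDUFS1, the largest core subunit, had the largest change, 0.24 ± 0.08, and missed the threshold (adjusted p = 0.0609), as did NDUFS4 (0.16 ± 0.06, adjusted p = 0.0524) and NDUFB8 (0.20 ± 0.07, adjusted p = 0.0733). For 10 of the 43 genes the exposed arrays lay above the control arrays, against 17.1% of all genes tested.

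Each of the 4 calls was lost without some single arrays. The number called was 1 without replicate 2 or 3 of the exposed group or replicate 1 of the control, 2 without replicate 2 of the control, and at most 5 when 1 array was left out. It was 9 without the arrays that lay apart and 0 when only the 6 arrays compared were fitted. CYC1 lost its call without replicate 3 of the exposed group or replicate 2 of the control (adjusted p up to 0.116 over all alternatives), and NDUFA9 without replicate 2 of the exposed group or replicate 1 of the control (up to 0.0776). NDUFS6 (up to 0.148) and COX7B (up to 0.197) lost it without replicate 2 or 3 of the exposed group or replicate 1 or 2 of the control.

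Other mitochondrial lists also had calls in 1 direction with MWCNT, where 8.99% of all tested genes were called higher and 4.04% lower. Glycolysis did so too, with 3 genes higher and 0 lower of 22. Of 47 mitochondrial ribosome genes 11 rose and 0 fell, with MRPL19 at 0.52 ± 0.09, and of 15 tricarboxylic acid cycle genes 5 rose, led by DLAT (0.47 ± 0.11), a subunit of pyruvate dehydrogenase, and CS, citrate synthase (0.29 ± 0.07). Of 22 assembly factors 5 rose, among them NDUFAF4 (0.47 ± 0.10), of 14 biogenesis regulators 3 rose, among them TWNK, the mitochondrial DNA helicase (0.44 ± 0.09), and of 15 ATP synthase genes 2 rose. CYCS rose by 0.32 ± 0.05. Of the 14 proliferation genes 12 rose, with a mean level of 8.27 to 8.39 against 7.39 to 7.71 in the control, and 1 of 8 macrophage markers fell. The 3' to 5' difference of ACTB was 0.50 to 0.60 with MWCNT against 0.35 to 0.49 in the control, without overlap, and that of GAPDH 0.33 to 0.36 against 0.28 to 0.34. The part of these in the result was not tested.

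**Figure D4:**
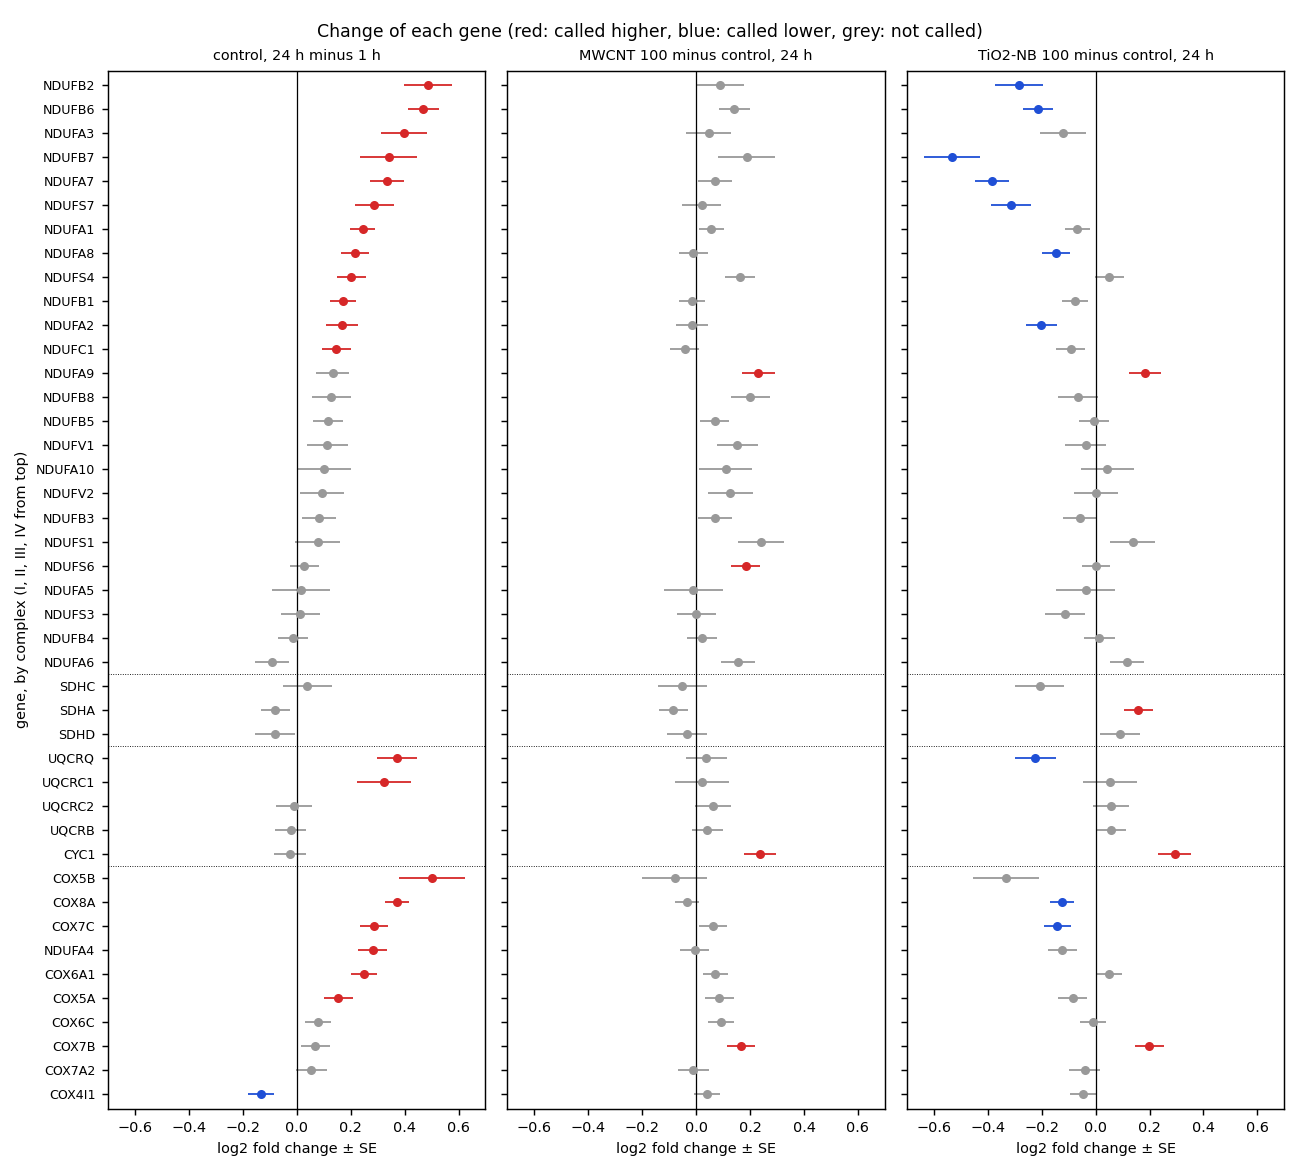
Log2 fold change ± standard error of each of the 43 genes (rows, by complex and in the same order in each panel) in the control between 1 h and 24 h and at 24 h with 100 µg/ml of each material, with called genes in colour. With time 20 genes are red and COX4I1 is blue, with MWCNT 4 are red, and with TiO2-NB 10 are blue and 4 red; the 24 h control arrays enter all 3 panels.

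A level that reads high in the 24 h control enters the time comparison as a rise and both exposure comparisons as a fall, since the 3 share those arrays. NDUFB7 was at 0.34 with time, -0.53 with TiO2-NB and 0.19 with MWCNT. NDUFA7 was at 0.34, -0.39 and 0.07, NDUFS7 at 0.29, -0.31 and 0.02, and NDUFB6 at 0.47, -0.21 and 0.14. Comparisons that leave those arrays out follow.

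The materials were compared directly at 100 µg/ml and 24 h, with no control arrays in the contrast. Of the 43 genes 11 were higher with MWCNT and 1 was lower, against 14% of all tested genes called higher and 10.9% called lower. The median difference was 0.11, MWCNT minus TiO2-NB, against -0.02 for all genes. All 25 complex I genes had a difference above 0 and 8 of them were called, while 4712 of the 10050 genes were above 0. The differences of the 25 share the same 6 arrays and are not independent of each other. This was not particular to complex I. Of 8 other subunits 8 were above 0 and 3 were called higher. Of 15 ATP synthase genes 14 were above 0 and 6 were called higher. Of 47 mitochondrial ribosome genes 40 were above 0, with 22 called higher and 2 lower. Of 14 biogenesis regulators 6 were above 0. Equally numbered arrays of these groups deviated together (residual correlations of 0.36 to 0.62), and with the replicate number as a block, a fit chosen after seeing the data, 19 genes were higher and 1 lower, against 21% and 17.4% of all genes. The 8 called with the block alone were NDUFA1, NDUFA3, NDUFA4, NDUFA8, NDUFB3, NDUFV1, COX5B and COX6C, at 0.10 to 0.25. The 3' to 5' difference of ACTB was 0.50 to 0.60 with MWCNT and 0.49 to 0.54 with TiO2-NB. The mean level of the macrophage markers was 10.56 to 10.62 with MWCNT against 10.29 to 10.35 with TiO2-NB. That of the proliferation genes was 8.27 to 8.39 against 7.77 to 8.06. Neither overlapped between the materials. The part of these in the result was not tested.

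NDUFB7 differed most. Its arrays read 9.09, 9.04 and 9.12 with MWCNT against 8.30, 8.42 and 8.37 with TiO2-NB, a difference of 0.72 ± 0.11 (adjusted p = 3.33e-05) or 1.65-fold. NDUFA7 read 9.37, 9.49 and 9.49 with MWCNT and differed by 0.46 ± 0.06 (adjusted p = 1.59e-05). Neither gene overlapped between the materials.

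NDUFB2 read 11.50, 11.53 and 11.46 with MWCNT and differed by 0.38 ± 0.09, NDUFB6 read 10.77, 10.79 and 10.87 and differed by 0.36 ± 0.06, and NDUFS7 read 9.31, 9.42 and 9.41 and differed by 0.33 ± 0.07 (adjusted p = 0.0037, 6.79e-05 and 0.00189). These 5 genes stayed called under all 16 alternatives. NDUFB8, an accessory subunit, read 10.19, 10.33 and 10.29 with MWCNT and 10.01, 10.01 and 10.00 with TiO2-NB, a difference of 0.27 ± 0.07 (adjusted p = 0.0101). With the mean of its 3 probe sets, of which the dimmest gave -0.11, it was at 0.16 and not called.

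UQCRQ (0.26 ± 0.07), COX7C (0.20 ± 0.05), NDUFA2 (0.19 ± 0.06), NDUFS6 (0.18 ± 0.05) and COX5A (0.17 ± 0.05) were also higher with MWCNT. Of these, COX7C stayed called whichever array was left out. UQCRQ and NDUFA2 lost their calls without replicate 2 or 3 with MWCNT or replicate 1 with TiO2-NB, NDUFS6 without replicate 2 or 3 with MWCNT or replicate 3 with TiO2-NB, and COX5A without replicate 1 with MWCNT or replicate 2 or 3 with TiO2-NB (adjusted p up to 0.132). SDHA went the other way, with 9.49, 9.44 and 9.45 with MWCNT and 9.66, 9.75 and 9.70 with TiO2-NB, a difference of -0.24 ± 0.05 (adjusted p = 0.00178) that stayed called under all 16 alternatives. For 19 of the 43 genes the MWCNT arrays lay above the TiO2-NB arrays, against 20.9% of all genes tested. CYC1 (-0.06 ± 0.06), COX7B and NDUFA9, high with both materials, were not called between them.

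The low dose was compared with the control to ask whether the set moved at 10 µg/ml. At 24 h none of the 43 genes was called with either material, against 0% of all genes with MWCNT and 0.0199% with TiO2-NB, and none had an unadjusted p under 0.05. The largest changes were 0.16 with MWCNT and -0.17 with TiO2-NB, with a median standard error of 0.06. NDUFB7 read 9.06, 9.01 and 9.11 with 10 µg/ml MWCNT and 8.75, 8.86 and 8.98 with 10 µg/ml TiO2-NB, both within or close to the control's 8.68 to 9.16.

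The high dose was then set against the low dose at 24 h. With TiO2-NB 5 of the 43 genes were lower at 100 than at 10 µg/ml and 3 were higher, against 6.1% and 7.38% of all genes. With each array centred on its median 2 were lower and 3 higher. NDUFB7 differed by -0.50 ± 0.11 (adjusted p = 0.00206), which stayed called under all 15 alternatives, NDUFA7, with 9.30, 9.27 and 9.30 at the low dose, by -0.29 ± 0.06 (adjusted p = 0.00221), and NDUFA9 by 0.28 ± 0.06 (adjusted p = 0.00276).

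CYC1 (0.22 ± 0.06) and SDHA (0.20 ± 0.05) were higher at the high dose. NDUFS7 (-0.22 ± 0.07), NDUFB6 (-0.19 ± 0.06) and NDUFA4 (-0.16 ± 0.05) were lower. NDUFA4 of complex IV read 11.67, 11.72 and 11.68 at the low dose and 11.54, 11.44 and 11.59 at the high dose.

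The 8 calls became 4 without replicate 1 or 2 at the high dose or replicate 1 at the low dose, and 5 without replicate 2 or 3 at the low dose. NDUFS7 lost its call without any 1 of the 6 arrays, NDUFB6 without any but replicate 2 at the low dose, and NDUFA4 without any but replicate 3 at the high dose (adjusted p up to 0.194, 0.135 and 0.225 over all alternatives). CYC1 lost it without replicate 1 of either dose and SDHA without replicate 2 of either (up to 0.0994 and 0.158). With MWCNT 0 of the 43 genes were called between the doses by limma and 2 had an unadjusted p under 0.05, against 4.67% of all genes called. CYC1 was at 0.15 ± 0.06 there.

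At 1 h the set was compared with the 1 h control for each material and dose. None of the 43 genes was called in any of the 4 comparisons, against 0% of all genes with 10 or 100 µg/ml MWCNT and with 10 µg/ml TiO2-NB, and 1.15% with 100 µg/ml TiO2-NB. In that last group 3 genes had an unadjusted p under 0.05, NDUFA9 (0.17 ± 0.06), NDUFS4 (0.15 ± 0.06) and COX6A1 (0.10 ± 0.05), with adjusted p values of 0.165, 0.189 and 0.286. Equal replicate numbers deviated together in that group and the 1 h control (0.60 to 0.69). With them as a block, chosen after seeing the data, 5.41% of all genes and 0 of the 43 were called by limma, 5 of the set had an unadjusted p under 0.05, and the lowest adjusted p values of the set were 0.0731 for NDUFA9 and 0.084 for NDUFS4. For 10 of the 43 genes the exposed arrays lay above the control arrays, against 11.6% of all genes. The largest change in the other 3 groups was -0.16 in NDUFB7 with 10 µg/ml MWCNT, and the median standard error was 0.06.

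Whether the response differed between 24 h and 1 h was tested as a difference of differences, in which the control arrays of both times enter. With 100 µg/ml TiO2-NB 5 of the 43 genes had a lower response at 24 h and 1 had a higher one, against 8.85% and 7.49% of all genes. NDUFA7 moved from 0.06 at 1 h to -0.39 at 24 h, a difference of -0.45 ± 0.09 (adjusted p = 0.00152) that stayed called under all 21 alternatives. NDUFS7 differed by -0.41 ± 0.10 (adjusted p = 0.00857) and NDUFB6 by -0.31 ± 0.08 (adjusted p = 0.01). Without the arrays that lay apart the adjusted p was 0.0834 for NDUFS7 and 0.0574 for NDUFB6.

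NDUFB7 differed by -0.48 ± 0.15 (adjusted p = 0.0292), CYC1 by 0.27 ± 0.08 (adjusted p = 0.0331) and NDUFA2 by -0.24 ± 0.08 (adjusted p = 0.0485). NDUFA2 read 10.29, 10.34 and 10.33 at 1 h and 10.15, 10.32 and 10.26 at 24 h with TiO2-NB, and 10.20, 10.33 and 10.29 at 1 h and 10.40, 10.42 and 10.52 at 24 h in the control. The 6 calls became 3 without replicate 2 of the exposed 1 h group or replicate 1 of the 1 h control. NDUFB7 lost its call without any 1 of 5 arrays (replicate 1 of the exposed 24 h group, replicate 2 of the exposed 1 h group, replicate 3 of the 24 h control, or replicate 1 or 3 of the 1 h control, adjusted p up to 0.142 over all alternatives). CYC1 lost it without any 1 of 7 arrays (up to 0.107) and NDUFA2 without any 1 of 9 (up to 0.41). With MWCNT 0 genes of the set were called by limma and 7 had an unadjusted p under 0.05, against 3.71% of all genes called, and 1 or 2 were called without replicate 3 of the 24 h control, replicate 2 of the 1 h control or replicate 1 of the exposed 1 h group.

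Some genes of the set moved little over the 10 groups. In all 14 comparisons, fitted without a block, 16 of the 43 were not called, though not all of these moved little. UQCRB, which helps form the ubiquinone-binding pocket of complex III, lay between 12.28 and 12.45 on the 30 arrays and its group means spanned 0.06. NDUFB4, a complex I accessory subunit, lay between 12.10 and 12.30 with group means spanning 0.08, and UQCRC2 lay between 10.42 and 10.69 with group means spanning 0.09. Among the others never called, COX7A2, a complex IV subunit, lay between 12.54 and 12.91 with group means spanning 0.22. SDHC, a membrane anchor of complex II, lay between 10.75 and 11.20, and its -0.21 ± 0.09 with 100 µg/ml TiO2-NB at 24 h (adjusted p = 0.109) was larger in size than the called changes of COX7C and COX8A, with a pooled SD of 0.11. The widest spans were in NDUFB7 (0.72), NDUFB2 (0.64), NDUFB6 (0.61) and COX5B (0.56), of which NDUFB7 and COX5B also had the largest pooled SDs, 0.13 and 0.16.

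Probe sets of any gene of the set may read more than 1 transcript, which was not checked for each of them. Those of SDHA, SDHC, COX4I1 and COX7C carry the array maker's mark for probes that can cross-hybridise. Of the 13 genes with several probe sets, 10 had several that passed the filter.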

How the data were processed

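The deposited table holds log2 probe set values of 30 Affymetrix 3' expression arrays, summarised by the authors with RMA per the submitters' processing notes; its version and the genome build are not given in the sources used here. RMA sets all arrays to 1 distribution, so a shift of all genes together would not show. The values were not normalised again. Of 22277 probe sets, 19064 matched 1 gene and were mapped by current or older symbol, with 1043 of several genes and 2108 of none left out. A probe set was kept above its array's 25th percentile on at least 3 arrays, and the brightest stood for its gene.

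limma 3.58.1 in R 4.3.3 fitted 10 group means to all 30 arrays (20 residual degrees of freedom). Its moderated two-sided test was Benjamini-Hochberg adjusted over 10050 genes in each of 14 comparisons. On simulated data the fit was checked for recovery of known changes. The simulated noise was independent between arrays, so the check does not cover the shared deviations described below. Promoters came from RefSeq tables (GRCh38.p14). The number of arrays, not depth, limits precision.

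The genes and lists were chosen with earlier results of these data known. All 48 genes could be named; values per array were due for the 6 largest called rises and falls of each comparison and for the brightest and dimmest gene of each complex, and up to 3 called genes of each other list. Equally numbered arrays deviated together (every correlation above 0.1) in 10 of 20 pairs of groups: among the 1 h groups other than 10 µg/ml TiO2-NB (0.33 to 0.73), and at 24 h between the 100 µg/ml groups and among the other 3 (0.11 to 0.70). The labels give only the numbers, so this pairing comes from the data; it was a block in 1 alternative. Other alternatives were another probe set rule, filters, scalings, array weights, a replicate block, only the arrays compared, and leaving out arrays.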

Additional observations from a re-analysis of the deposited data

Results flagged for a closer look

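The response to 100 µg/ml TiO2-NB differed between 24 h and 1 h, by a test of that difference in the limma fit, for 6 of the 43 genes of the set (14%), against 16.3% of all genes tested. The response at 24 h minus that at 1 h was -0.48 for NDUFB7, -0.45 for NDUFA7, -0.41 for NDUFS7, -0.31 for NDUFB6 and -0.24 for NDUFA2, all of complex I, and 0.27 for CYC1 of complex III. In NDUFA7 the difference stayed called under all 21 alternatives, and the other 5 genes each lost their call under some of them, from 1 alternative for NDUFB6 and 2 for NDUFS7 to 16 for NDUFA2. With MWCNT at the same dose 0 of the 43 genes were called by limma in this test and 7 had an unadjusted p under 0.05. The 24 h control arrays enter this test with either material.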

How the results depend on the processing

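When only the arrays compared were fitted, the count was 0 for 100 µg/ml MWCNT against the 24 h control (4 with all arrays), 2 for 100 µg/ml TiO2-NB (14), 7 between the materials (12), 1 between the TiO2-NB doses (8), 12 between 24 h and 1 h in the control (21) and 2 for the TiO2-NB response at 24 h against 1 h (6). With array weights it was 9 for MWCNT, 26 between the materials, 4 between the MWCNT doses (0 with equal weights) and 4 for the MWCNT response at 24 h against 1 h (0). Without the arrays that lie apart, an alternative chosen after seeing the data, it was 9 for MWCNT, 7 for TiO2-NB and 2 for the MWCNT response. With each array centred on its median it was 5 between the TiO2-NB doses and 2 for the MWCNT response, and of the genes of the whole table called for the TiO2-NB response 984 of 1704 were higher, against 753 of 1642. Leaving out 1 array at a time gave 1 to 5 for MWCNT, 8 to 10 for TiO2-NB, 9 to 13 between the materials, 4 to 6 between the TiO2-NB doses, 17 to 20 for the control with time, 0 to 2 for the MWCNT response and 3 to 7 for the TiO2-NB response. Fewer arrays leave fewer degrees of freedom; for the scalings and weights the cause was not tested.

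Another 116 counts under such alternatives, and 79 with 1 array left out, stayed within 1.5 times the count with all arrays. Of the genes given with values per array, 53 calls of 385 were lost under alternatives other than leaving out 1 array and 70 of 288 with 1 array left out, and 0 changed direction. Over all groups equal replicate numbers did not pair the arrays: of 60 pairs of equally numbered arrays, 38 had residuals that correlated above 0.1 and 21 correlated negatively. A replicate block over all groups gave 4 calls for MWCNT, 13 for TiO2-NB, 12 between the materials, 9 between the TiO2-NB doses and 21 with time. A replicate block within the groups whose numbers pair, chosen after seeing the data, gave 20 between the materials and 0 by limma in the 5 other comparisons it allows, each of a dose with its control, with 0 to 5 at an unadjusted p under 0.05. No scaling moved the median of all genes by over 0.1.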
